A study of Mus musculus with 6 samples.

Results

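Canonical YAP/TAZ target genes are genes that were reported in other cells to need the co-activators YAP and TAZ for their expression. A set of 32 such genes was looked up by symbol in the deposited expression table of E15.5 (embryonic day) mouse kidneys. All 32 were found among its 24749 Ensembl identifiers, and 29 of them were among the 16899 genes tested, those whose average over the 6 libraries reached 0.5 FPKM. FPKM counts fragments relative to the length of the transcript and to the size of the library, so levels can be compared between genes. The 6 libraries form 2 groups of 3. The first group carried the genotype Foxd1cre; Yapc/c;Tazc/c, in which Cre recombinase driven from Foxd1 acts on loxP-flanked Yap1 and Wwtr1 (the gene of TAZ) in the stromal lineage. It is called knockout here. The second group is labelled as wild type and Cre negative, and whether those kidneys carried floxed alleles was not given in the sources used here. Both groups were of mixed strain. RNA came from whole dissected kidneys, so cells outside the Foxd1 lineage, which keep intact Yap1 and Wwtr1, contribute to every value. How many embryos or litters lie behind a group was not stated either, so p-values reflect variation among libraries that can be technical in part.

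YAP and TAZ do not bind DNA themselves. They enter the nucleus, pair with TEAD transcription factors and switch on genes for cell shape, adhesion, secreted signals and survival. The Hippo kinases LATS1 and LATS2 phosphorylate them and hold them in the cytoplasm, and several target genes encode inhibitors of YAP and TAZ, which closes a feedback loop. Most target lists come from cultured epithelial and tumour cells.

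The floxed genes were read first. Wwtr1 (chromosome 3, 57455649 to 57575910, GRCm38) lay at 17.7 to 20.2 FPKM in the wild-type libraries and at 12.2 to 13.5 FPKM in the knockout libraries (log2 change -0.51, SE 0.0700, limma adjusted p = 0.0235). An exact two-sided permutation test gave p = 0.1, the smallest that 3 against 3 allows. Leaving out knockout library 1, 2 or 3 or wild-type library 2 ended the call, as did rescaling to equal sums and a replicate block (adjusted p between 0.0516 and 0.117). Yap1 (chromosome 9, 7931999 to 8004596) lay at 45.5 to 54.95 against 43.2 to 48.7 FPKM (log2 change -0.16, adjusted p = 0.378, exact permutation p = 0.2). Which exons are floxed was not stated, so whether RNA of recombined alleles enters these values is not known here. Foxd1, the gene that drives Cre, lay at 6.86 to 9.16 against 4.03 to 5.199 FPKM (log2 change -0.65, adjusted p = 0.0886). Cre was carried by the knockout group only. Effects of the Cre allele and of loss of YAP and TAZ therefore cannot be told apart for any target gene.

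As checks of the libraries, all 8 kidney markers examined (such as Pax2, Wt1 and Ret) had a mean above 1 FPKM. Wild-type library 3 stood apart for 6 genes of skeletal and heart muscle, whose summed level was 86.0 FPKM there and 4.20 to 15.4 FPKM in the other libraries. Depth, estimated from the steps between the lowest values, was about 12700000 to 15500000 fragments per library.

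Of the 29 target genes tested, 0 were called lower and 0 higher by limma at an adjusted p under 0.05, against 0.604% and 0.13% of all genes tested (0.734% in either direction). The smallest adjusted p was 0.0929, for Rbms3. Without adjustment, 8 target genes had a p under 0.05 and lay lower (6.94% of all genes tested did so), and 2 lay higher (9.14% of all genes). The lower ones were Rbms3, Tgm2, Arhgap29, Fstl1, Axl, Ccdc80, Amotl2 and Cav1, and the higher ones were Tnfrsf12a and Gadd45a. These counts became 5 and 1 without knockout library 3, and 7 and 1 without wild-type library 2. The libraries of the groups did not overlap for 8 target genes with the knockout below (11.8% of all genes) and for 2 with the knockout above (12.5%). In all, 19 of the 29 had a log2 change below 0 (50.4% of all genes). Their median log2 change was -0.08, beside -0.0020 over all genes tested.

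**Figure D1:**
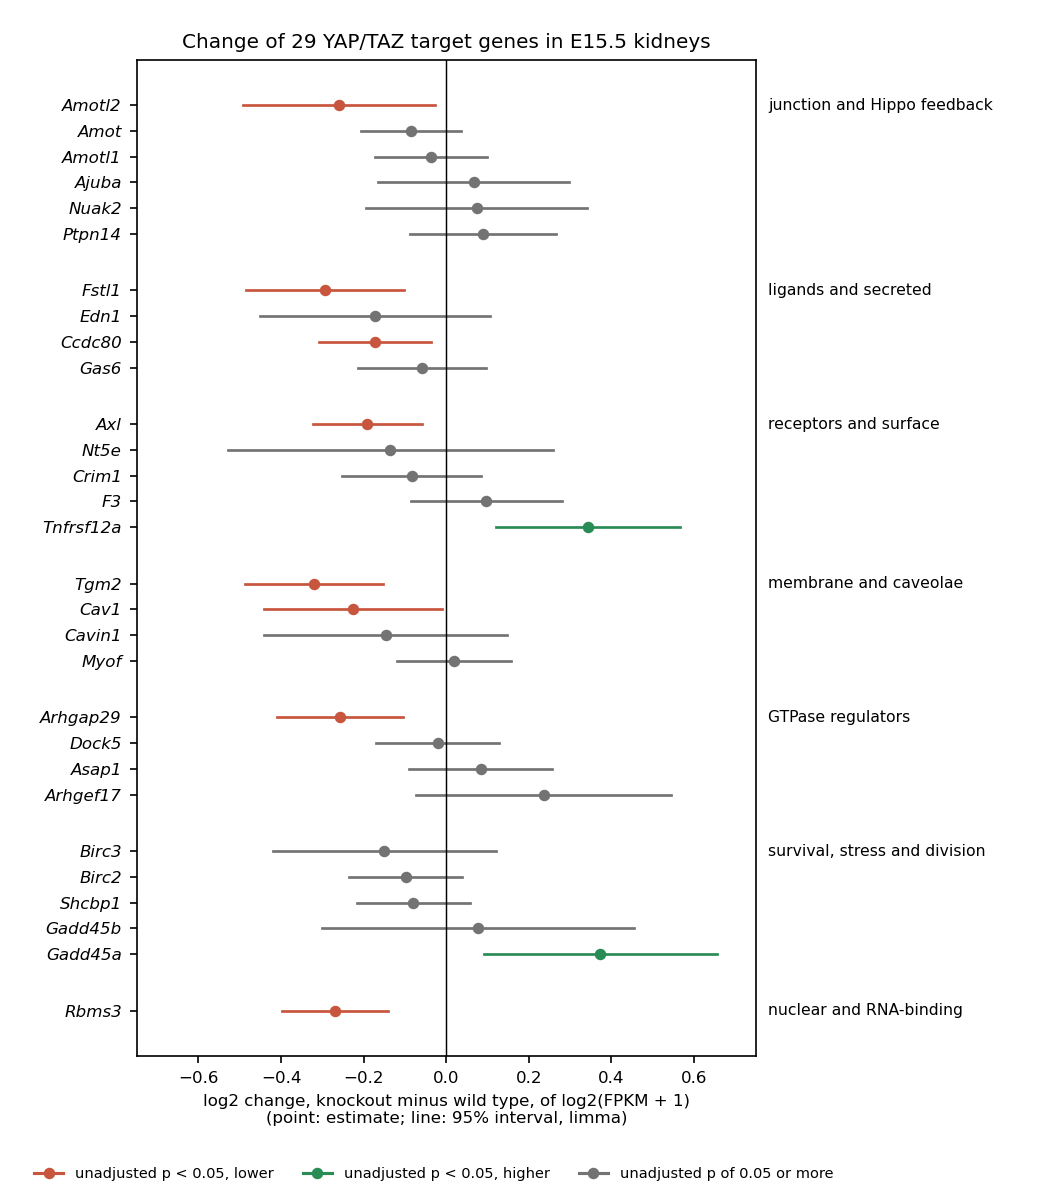
Log2 change (knockout minus wild type, on the log2(FPKM + 1) scale) of the 29 target genes tested, grouped by role, with 95% confidence intervals from limma (n = 3 libraries per genotype). All 29 intervals lie between -1 and 1, 8 lie wholly below 0 (red), 2 lie wholly above 0 (green) and the other 19 cross 0 (grey).

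The intervals bound what whole-kidney RNA can show. All 29 lay between -1 and 1 on the log2 scale (93.8% of all genes), and 25 lay between -0.5 and 0.5 (78.1% of all genes). The exceptions to the narrower range were Gadd45a, Arhgef17, Tnfrsf12a and Nt5e. Dilution by cells that keep Yap1 and Wwtr1, fewer cells of a type and less RNA per cell cannot be told apart in these values.

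Marker lists of the main cell types of the kidney are given here as measured. The counts are to be read beside all genes tested, of which 50.4% lay below 0, 0.604% were called lower and 0.13% higher. Summed levels of 7 smooth muscle genes ran from 83.8 to 89.8 FPKM in wild-type and from 53.9 to 65.7 FPKM in knockout libraries, with all 7 below 0 and 2 called lower. Those of 7 pericyte genes ran from 133 to 143 against 117 to 125 FPKM (3 of 7 below 0, 0 called). Those of 7 cortical stroma genes ran from 217 to 239 against 207 to 217 FPKM (5 of 7 below 0, Foxd1 itself among them, and 2 called lower). Sums of the 10 ureteric bud genes lay the other way, from 357 to 376 against 419 to 430 FPKM (0 of 10 below 0, 0 called), as did 9 endothelial genes, from 315 to 324 against 331 to 335 FPKM (3 of 9 below 0, 0 called). Sums of 6 medullary stroma genes ran from 398 to 462 against 386 to 410 FPKM (5 of 6 below 0, 0 called). The renin cell genes Ren1 and Akr1b7 together ran from 45.3 to 84.7 against 13.7 to 18.6 FPKM (2 of 2 below 0, 1 called lower, Akr1b7). Sums of 7 nephron progenitor genes, 6 of them tested, ran from 102 to 115 against 119 to 125 FPKM (0 of 6 below 0, 0 called). Of these genes Itga8 alone ran from 34.9 to 45.3 against 51.5 to 52.8 FPKM. Lists of stromal and mural cells were lower in sum in the knockout libraries or overlapped, and those of the epithelial lineages named here were higher. No member of these lists was listed at 0 throughout. Their part in the values of the target genes was not tested.

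Sequence just upstream of the annotated starts is shown first for Axl, Edn1, Ptpn14 and Ajuba, target genes that hold the letters of a TEAD element. Amotl2, Ankrd1, Cavin1 and Crim1 also hold them and are not printed. RefSeq (GRCm38.p6) promoters were found for 25 of the 32 genes. GGAATG on either strand occurred within 250 bases before a start in 8 of the 25, namely Ajuba, Amotl2, Ankrd1, Axl, Cavin1, Crim1, Edn1 and Ptpn14, and in 14.4% of all 27025 genes in that table. In the last 100 bases it occurred in 2 of the 25 (Amotl2 and Crim1) and in 5.55% of all genes. The AP-1 letters TGANTCA on either strand occurred in 1 of the 25 (F3, which has no GGAATG, so no matches overlap) and in 7.82% of all genes. Capitals mark GGAATG or its reverse complement CATTCC, each sequence runs 5′ to 3′ on the gene's own strand, and the last base is the one before the start. The match lies 233 bases before the start in Axl, 207 in Edn1, 146 in Ptpn14, and 186 and 164 in Ajuba. The RefSeq starts of Axl and Ajuba lie 28 and 103 bases upstream of the GENCODE gene starts, and the bases after them are not in a GENCODE transcript. Counted from the GENCODE starts these matches lie 261 bases away in Axl and 289 and 267 in Ajuba, outside a window of 250 bases. Edn1, Ptpn14 and Crim1 (match 79 bases before the start) have the same start in both annotations. The RefSeq starts of Amotl2, Cavin1 and Ankrd1 lie inside the gene as GENCODE places it, and their matches lie past the GENCODE gene start. The share over all genes was not counted from GENCODE starts. Rbms3, which had the smallest p, is shown as a case without a match.
Axl (chr7:25788734-25788983, minus strand): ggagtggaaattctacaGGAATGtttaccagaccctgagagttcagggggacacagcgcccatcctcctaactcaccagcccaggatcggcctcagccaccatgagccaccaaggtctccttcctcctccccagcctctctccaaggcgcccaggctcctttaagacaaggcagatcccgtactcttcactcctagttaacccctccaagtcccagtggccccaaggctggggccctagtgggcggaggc
Edn1 (chr13:42301226-42301475, plus strand): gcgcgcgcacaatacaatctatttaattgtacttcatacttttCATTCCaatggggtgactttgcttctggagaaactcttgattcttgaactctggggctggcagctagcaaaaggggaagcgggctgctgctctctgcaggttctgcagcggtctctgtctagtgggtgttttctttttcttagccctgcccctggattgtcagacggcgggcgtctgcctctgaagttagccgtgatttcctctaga
Ptpn14 (chr1:189728018-189728267, plus strand): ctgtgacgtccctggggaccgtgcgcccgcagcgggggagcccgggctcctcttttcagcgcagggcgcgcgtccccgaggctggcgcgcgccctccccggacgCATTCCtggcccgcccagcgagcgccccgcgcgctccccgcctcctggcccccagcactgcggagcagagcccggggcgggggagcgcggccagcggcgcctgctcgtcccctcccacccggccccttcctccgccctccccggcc
Ajuba (chr14:54577662-54577911, minus strand): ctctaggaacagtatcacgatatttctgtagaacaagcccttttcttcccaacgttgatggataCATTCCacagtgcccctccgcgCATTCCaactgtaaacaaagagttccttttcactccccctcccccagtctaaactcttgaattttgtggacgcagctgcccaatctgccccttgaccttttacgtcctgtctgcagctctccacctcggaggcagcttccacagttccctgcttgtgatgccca
Rbms3 (chr9:117629914-117630163, minus strand): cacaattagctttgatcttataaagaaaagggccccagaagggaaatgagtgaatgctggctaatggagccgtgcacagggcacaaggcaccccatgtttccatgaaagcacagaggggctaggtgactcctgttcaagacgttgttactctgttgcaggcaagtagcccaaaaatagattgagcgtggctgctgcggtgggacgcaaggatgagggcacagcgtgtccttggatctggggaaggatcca
Split by the RefSeq starts, the 7 tested genes with the TEAD letters had a median log2 change of -0.15 (5 below 0). The 15 tested genes without them had one of -0.08 (10 below 0), and 50.4% of all genes tested lay below 0. Of the 7, only Edn1 (-0.17), Ptpn14 (0.09) and Crim1 (-0.08) keep a match within 250 bases before the GENCODE start. The split therefore depends on the annotation, and it was not made from GENCODE starts. Of the printed genes with a match, Axl (-0.19) and Edn1 (-0.17) lay below 0, and Ptpn14 (0.09) and Ajuba (0.07) above. A match is a run of letters and no measured binding.

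Target genes of the feedback and junction group did not move together. The group holds Amot, Amotl1 and Amotl2, whose products (the angiomotins) hold YAP at cell junctions, Ajuba, a LIM protein that restrains LATS kinases, Ptpn14, a phosphatase that binds YAP, and Nuak2, a kinase that favours nuclear YAP. Of the 6 genes, 3 lay below 0, and their median log2 change was 0.02. Amotl2 (chromosome 9, 102716672 to 102733418) measured 15.6, 17.7 and 18.2 FPKM in wild-type libraries 1 to 3 and 15.8, 12.4 and 14.5 FPKM in knockout libraries 1 to 3. Knockout library 1 lay within the wild-type range and the other two lay below it, so the groups overlapped. Its mean was 17.2 ± 1.38 against 14.2 ± 1.76 FPKM (SD, n = 3 each), a log2 change of -0.26 (SE 0.0998, limma adjusted p = 0.268).

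The other angiomotin genes were closer to no change. Amot lay at 20.8 to 21.9 FPKM in wild-type and at 19.8 to 20.4 FPKM in knockout libraries, without overlap, a difference of -0.08 on the log2 scale (95% interval -0.21 to 0.04, adjusted p = 0.459). Amotl1 lay at 27.7 to 31.1 against 27.9 to 28.9 FPKM (log2 change -0.04, adjusted p = 0.795). The log2 changes of Ptpn14 (26.5 to 29.6 against 28.2 to 33.0 FPKM), Ajuba (16.1 to 20.4 against 18.8 to 21.3 FPKM) and Nuak2 (1.21 to 1.64 against 1.38 to 1.84 FPKM) were 0.09, 0.07 and 0.07, with adjusted p between 0.605 and 0.789.

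All 4 tested genes of secreted proteins lay below 0, with 2 of them at an unadjusted p under 0.05. Fstl1 (chromosome 16, 37776873 to 37836514) encodes a secreted glycoprotein of the follistatin family that is made by mesenchyme, and it was the most abundant of the 32 genes. It measured 313, 295 and 261 FPKM in the wild-type libraries and 249, 233 and 224 FPKM in the knockout libraries. Every knockout library lay below every wild-type library, and the nearest pair differed by little (249 against 261 FPKM). Its mean was 290 ± 26.7 against 235 ± 13.1 FPKM (SD, n = 3 each), 81.3% of wild type, with a log2 change of -0.29 (SE 0.0822, limma adjusted p = 0.175, and 0.0836 to 0.410 over the alternatives).

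Ccdc80 (chromosome 16, 45093402 to 45128077), a secreted protein of the extracellular matrix, measured 30.9, 28.0 and 28.1 FPKM in wild-type and 25.2, 26.4 and 25.3 FPKM in knockout libraries. The groups did not overlap, and the log2 change was -0.17 (SE 0.0583, adjusted p = 0.227). Edn1, the gene of the vasoconstrictor endothelin-1, lay at 2.19 to 2.58 against 1.70 to 2.42 FPKM (log2 change -0.17, 95% interval -0.45 to 0.11). Gas6, the ligand of the receptor tyrosine kinase AXL, lay at 13.6 to 14.6 against 12.7 to 14.4 FPKM (log2 change -0.06, 95% interval -0.21 to 0.10).

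Areg, which encodes the EGF receptor ligand amphiregulin and is a frequent reporter of YAP activity in epithelial cells, was all but unread. It measured 0.0703 FPKM in wild-type library 1, which corresponds to about 1 fragment on its 1215 bp transcript, and was listed at 0 in the other 5 libraries. At these depths 3 fragments on that transcript would be 0.159 to 0.194 FPKM, and all 6 values lay below that, so no difference between the groups was detectable. This limit covers counting error only.

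**Figure D2:**
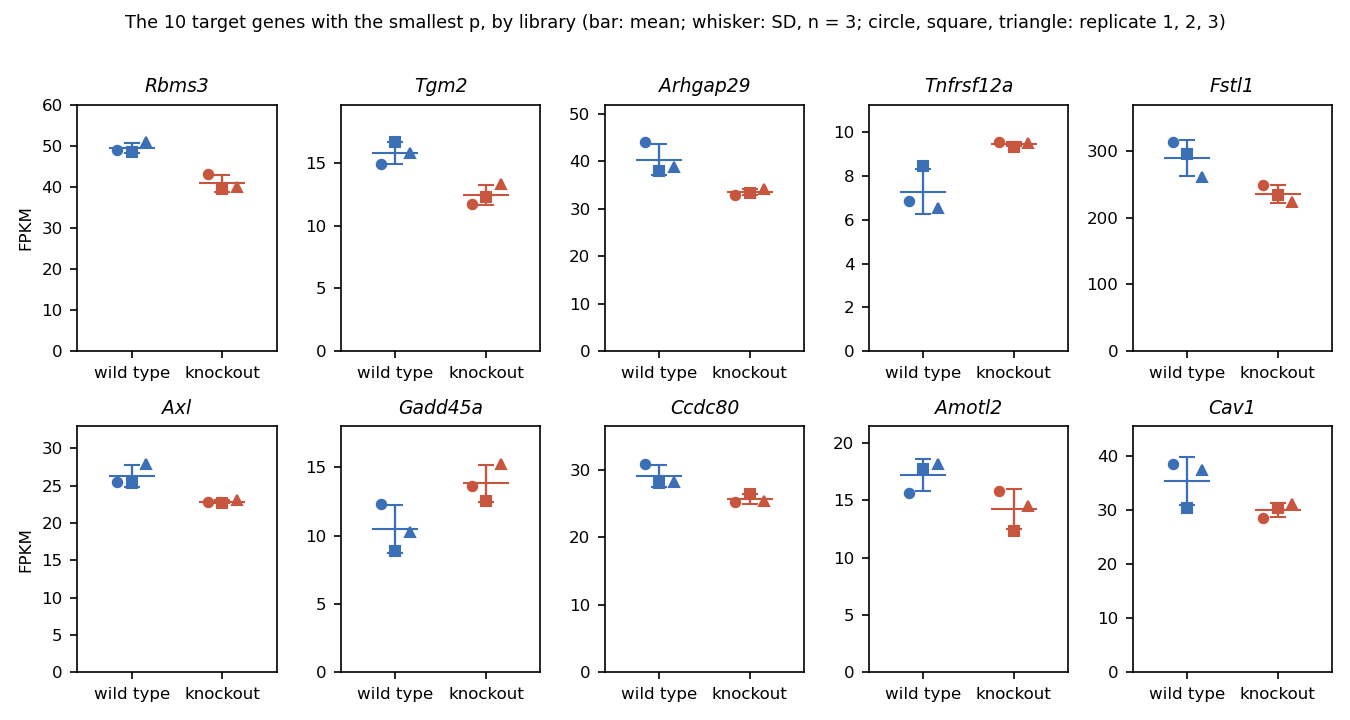
FPKM in each library of the 10 target genes with the smallest p, with the mean and SD of each genotype (n = 3) and axes that start at 0. The groups do not overlap for 8 of them, and they do for Amotl2, where knockout library 1 lies within the wild-type range, and for Cav1, where wild-type library 2 lies at the knockout level.

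Among the receptors and surface proteins the genes lay on both sides of 0. Axl (chromosome 7, 25757273 to 25788705) measured 25.5, 25.4 and 27.9 FPKM in the wild-type libraries and 22.8, 22.7 and 23.1 FPKM in the knockout libraries. The knockout libraries were close to each other (SD 0.207) and all lay below the wild-type range, with a log2 change of -0.19 (SE 0.0569, limma adjusted p = 0.189). Its ligand gene Gas6 is given above with an interval that crosses 0. Tnfrsf12a (chromosome 17, 23675445 to 23677468), which encodes Fn14, the receptor of the cytokine TWEAK, went the other way. It measured 6.87, 8.44 and 6.54 FPKM in wild-type and 9.55, 9.34 and 9.50 FPKM in knockout libraries, that is, 130% of wild type. All knockout libraries lay above all wild-type libraries (log2 change 0.34, SE 0.0958, adjusted p = 0.174).

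The remaining surface genes had intervals that cross 0. Crim1, a transmembrane protein that binds BMPs, lay at 8.98 to 9.55 against 8.36 to 9.36 FPKM (log2 change -0.08). F3, the tissue factor that starts blood clotting, lay at 4.25 to 4.55 against 4.53 to 4.95 FPKM (0.10). Nt5e, the ectoenzyme CD73 that forms adenosine, varied most among the wild-type libraries of these, at 1.88 to 3.36 against 2.00 to 2.76 FPKM (-0.14, 95% interval -0.53 to 0.26).

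In the membrane group, 3 of 4 genes lay below 0. Tgm2 (chromosome 2, 158116402 to 158146436) encodes transglutaminase 2, an enzyme that cross-links proteins, and its log2 change lay farthest below 0 of all 29 genes. It measured 14.9, 16.6 and 15.8 FPKM in the wild-type libraries and 11.7, 12.3 and 13.3 FPKM in the knockout libraries. The groups did not overlap. Its level was 78.8% of wild type, with a log2 change of -0.32 (SE 0.0720, limma adjusted p = 0.116, and 0.103 to 0.323 over the alternatives). Tgm2 shares 370 bp of exon with Rprd1b on the opposite strand, which measured 14.2 FPKM, and whether the libraries kept strand was not given in the sources used here.

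Both caveola genes of the set, Cav1 and Cavin1, overlapped between the genotypes. Cav1 (chromosome 6, 17306335 to 17341452), the caveolin-1 gene, measured 38.6, 30.4 and 37.4 FPKM in wild-type and 28.6, 30.4 and 31.3 FPKM in knockout libraries. Wild-type library 2 lay at the knockout level, so the groups overlapped (log2 change -0.23, SE 0.0924, adjusted p = 0.293). Cavin1, which encodes the caveola coat protein, spread more among the wild-type libraries (21.7 to 31.2 FPKM) than between the genotypes (knockout 23.1 to 24.8 FPKM). Its log2 change was -0.15 (adjusted p = 0.604). It moved to -0.29 without wild-type library 1 (adjusted p = 0.148), to -0.10 without library 2 and to -0.04 without library 3 of that group (adjusted p = 0.871). Myof, which encodes the membrane repair protein myoferlin, lay at 13.5 to 14.6 against 13.97 to 14.5 FPKM (log2 change 0.02, 95% interval -0.12 to 0.16).

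The regulators of small GTPases split evenly around 0. Arhgap29 (chromosome 3, 121952541 to 122016753), an inactivator of RhoA, measured 44.0, 38.0 and 38.8 FPKM in the wild-type libraries and 32.9, 33.3 and 34.2 FPKM in the knockout libraries. The groups did not overlap, and the knockout level was 83.0% of wild type (log2 change -0.26, SE 0.0657, limma adjusted p = 0.149). Its neighbour F3 lies 217 kb away on chromosome 3 and had a log2 change of 0.10. Arhgef17, an activator of RhoA, lay on the other side of 0, at 8.85 to 11.98 against 11.3 to 14.8 FPKM (0.24, 95% interval -0.07 to 0.54). Asap1, a GTPase-activating protein for Arf proteins (14.4 to 14.7 against 14.03 to 16.9 FPKM), and Dock5, an activator of Rac (14.9 to 16.4 against 14.9 to 16.1 FPKM), had log2 changes of 0.08 and -0.02.

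Among the 5 genes of survival, stress and division, the intervals of all but Gadd45a crossed 0. This stress-induced gene (chromosome 6, 67035096 to 67037457), whose product acts in growth arrest and DNA repair, measured 12.3, 8.84 and 10.3 FPKM in wild-type and 13.6, 12.6 and 15.3 FPKM in knockout libraries. The groups did not overlap, although wild-type library 1 came within a small margin of knockout library 2. The knockout level was 132% of wild type (log2 change 0.37, SE 0.121, limma adjusted p = 0.214), the highest log2 change among the 29. Its relative Gadd45b overlapped between the groups, at 3.35 to 5.23 against 3.82 to 5.51 FPKM (0.08, 95% interval -0.30 to 0.46). Gadd45a shares 337 bp of exon with E230016M11Rik on the opposite strand (4.32 FPKM).

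Beside Gadd45a and Tnfrsf12a, which are also induced by stress, stand the immediate early and heat shock genes. Of 9 such genes tested, 8 lay above 0 and 0 were called. Over all genes tested, 50.4% lay below 0 and 0.734% were called. The summed level of all 10 examined ran from 26.8 to 37.5 FPKM in wild-type and from 43.2 to 45.5 FPKM in knockout libraries. No gene of this list was listed at 0 throughout, and its part in the values of Gadd45a and Tnfrsf12a was not tested.

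Birc2 and Birc3 encode inhibitors of apoptosis (cIAP1 and cIAP2) and lie next to Yap1. On chromosome 9 of GRCm38, Birc3 (7848699 to 7873186) ends 58.8 kb and Birc2 (7818227 to 7837064) ends 94.9 kb from the floxed gene. Birc2 lay at 21.2 to 23.2 FPKM in wild-type and at 19.8 to 21.0 FPKM in knockout libraries, without overlap (log2 change -0.10, 95% interval -0.23 to 0.04, adjusted p = 0.451). Birc3 lay at 4.66 to 5.65 against 3.75 to 5.04 FPKM (-0.15, adjusted p = 0.566). An effect of the floxed allele on its surroundings and a response to loss of YAP and TAZ cannot be told apart for this pair. Shcbp1, a protein of dividing cells, lay at 28.8 to 30.9 against 26.5 to 29.3 FPKM (-0.08, 95% interval -0.22 to 0.06).

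The nuclear and RNA-binding group holds the gene with the smallest p and a pair of genes that were barely expressed. Rbms3, an RNA-binding protein gene of mesenchyme (chromosome 9, 116572746 to 117629913), measured 49.0, 48.5 and 50.9 FPKM in the wild-type libraries and 43.3, 39.5 and 39.9 FPKM in the knockout libraries. The groups did not overlap, and knockout library 1 lay nearest to the wild-type range. Its level was 82.7% of wild type (log2 change -0.27, SE 0.0552, 95% interval -0.40 to -0.14, limma adjusted p = 0.0929). Over the alternatives the adjusted p ran from 0.0812 to 0.313.

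Ankrd1, a cardiac ankyrin repeat protein and one of the most used YAP/TAZ reporters, measured 0.368, 0.413 and 0.131 FPKM in wild-type libraries 1 to 3. In knockout libraries 2 and 3 it measured 0.0914 and 0.265 FPKM, and it was listed at 0 in knockout library 1. On its longest transcript of 2020 bp these values stand for about 9, 12 and 4 fragments against 0, 2 and 8, so the groups overlapped at a depth of a few fragments. It was below the filter, and with no filter its log2 change was -0.22 (limma adjusted p = 0.439). Wild-type library 3, the one high in skeletal and heart muscle genes, was the lowest of its group for Ankrd1. That order rests on a few fragments, and a part of muscle tissue in the Ankrd1 values was not tested. Foxf2, a forkhead factor of mesenchyme, lay at 0.222 to 0.479 against 0.348 to 0.465 FPKM, about 7 to 16 against 12 to 17 fragments (0.08 with no filter, adjusted p = 0.726).

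**Figure D3:**
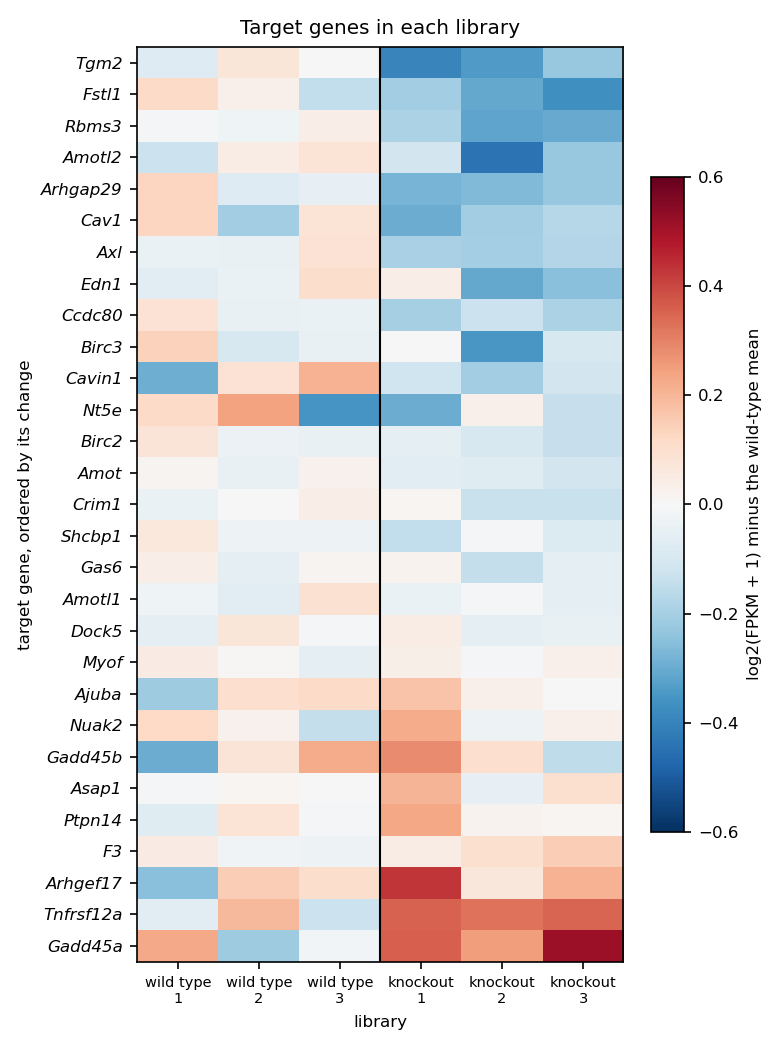
Level of each of the 29 target genes in each library, as log2(FPKM + 1) minus its wild-type mean, ordered by the change. The median over the genes was -0.0027 in knockout library 1, -0.07 in knockout library 2 and -0.11 in knockout library 3. Knockout library 1 was the highest of all libraries for 7 genes and the lowest for 5. Its small median therefore does not mean that its genes lay close to wild type.

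Knockout libraries differed among themselves over the set. The median difference from the wild-type mean over the 29 genes was -0.0027 in knockout library 1, -0.07 in knockout library 2 and -0.11 in knockout library 3, while over all genes tested it lay between -0.0024 and 0.0033 in these libraries. Knockout library 1 was the highest of the 6 libraries for 7 of the 29 genes (20.5% of all genes) and the lowest for 5 (19.9% of all genes). Knockout library 2 was the highest for 0 (15.7% of all genes) and the lowest for 8 (14.4%), and knockout library 3 was so for 2 (11.4%) and 4 (12.3%). Without knockout library 1 the median log2 change of the set was -0.09 and 0 genes were called.

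Wild-type level and change were related across the set as follows. The set spans from 0.0234 FPKM (Areg) to 290 FPKM (Fstl1). The median of the 29 tested was 15.8 FPKM, against a median of 9.84 FPKM over all genes tested. The order opens with Fstl1, Rbms3 and Arhgap29, whose wild-type ranges are separate. From Arhgap29 at 40.3 FPKM through Cav1, Shcbp1, Amotl1, Ccdc80, Ptpn14 and Cavin1 to Axl at 26.3 FPKM, neighbours in the order did not differ beyond their spread. At the low end Nuak2 (1.44 FPKM) lay above Foxf2, Ankrd1 and Areg, all under 0.5 FPKM.

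Target genes with a high wild-type level lay mostly below 0. Of the 12 target genes at 20 FPKM or more, 11 had a log2 change below 0 (the exception was Ptpn14) and 6 had an unadjusted p under 0.05, with a median change of -0.16. Of all 5096 genes at that level, 52.9% lay below 0 and 9.73% were lower at that p. Between 5 and 20 FPKM, 6 of 12 lay below 0 (47.2% of all genes there), and 2 were lower and 2 higher at an unadjusted p under 0.05 (6.59% and 12.1% of all genes there). Under 5 FPKM, 2 of 5 lay below 0 (51.5% of all genes there) and 0 had such a p (4.84% lower and 6.28% higher among all genes there), a number too small to read against those shares. These limits of 5 and 20 FPKM were set after the values were seen.

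Spearman's rho between wild-type mean FPKM and log2 change was -0.49 across the 29 genes, which share the same 6 libraries and are not independent, and -0.0096 across all 16899 genes. It is given as a description. The wild-type mean enters both measures, and with the mean of all 6 libraries as the level rho was -0.44. With the log2 ratio of mean FPKM as the change, which is not compressed at low levels, it was -0.46. Precision also differed along the axis, since the median width of the 95% interval to each side was 0.28 under 5 FPKM, 0.20 between 5 and 20 FPKM and 0.14 at 20 FPKM or more.

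**Figure D4:**
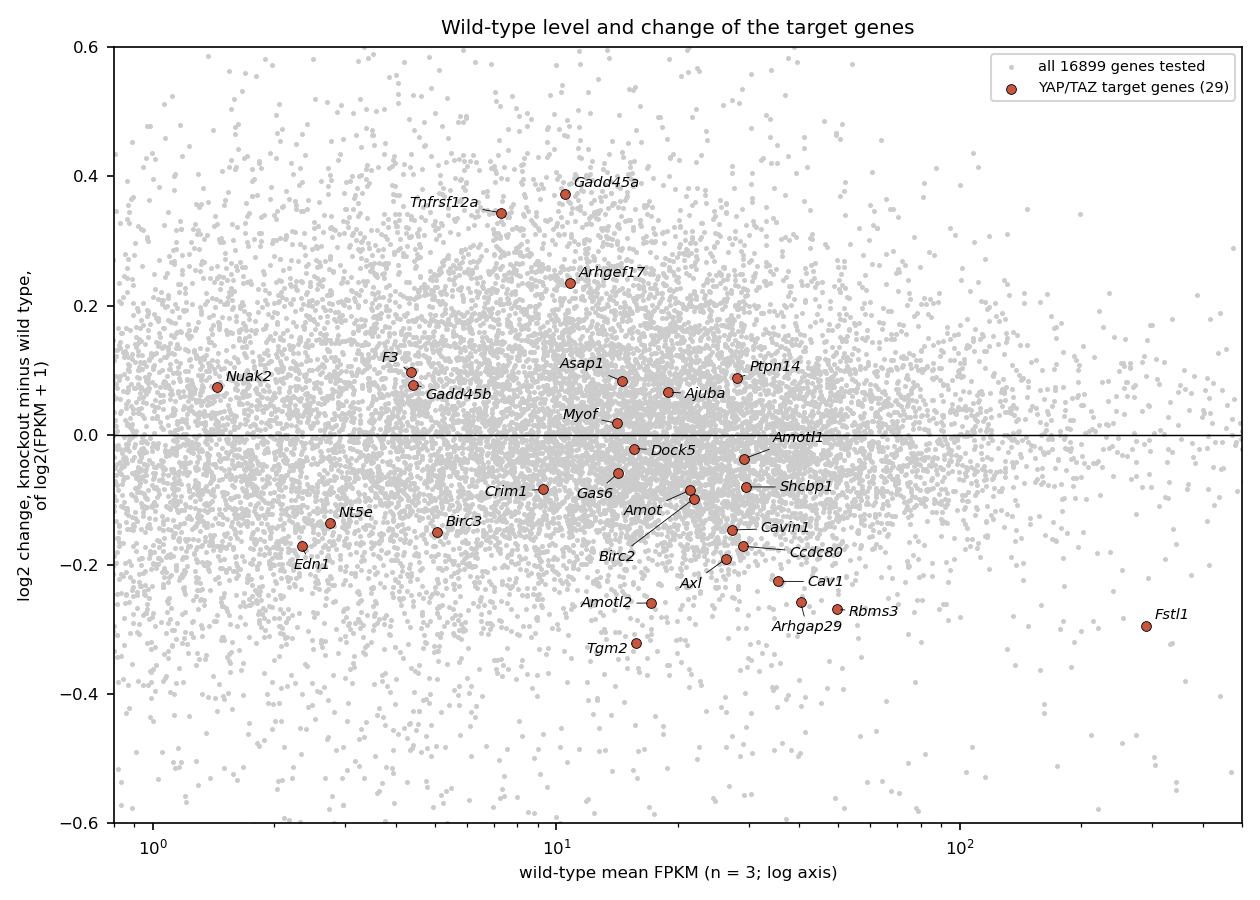
Log2 change (knockout minus wild type, log2(FPKM + 1) scale) against wild-type mean FPKM (log axis) for the 29 target genes (red, named) and all genes tested (grey, those outside the axes not shown). Of the 12 target genes at 20 FPKM or more 11 lie below 0, and the 3 highest, Fstl1, Rbms3 and Arhgap29, lie at -0.29, -0.27 and -0.26.

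Other genes of the pathway were read in the same fit. Of 25 Hippo components (kinases, scaffolds, TEAD factors and their partners), 24 were tested, 1 was called lower (Wwtr1) and 0 higher. Their median log2 change was -0.05, with 15 below 0, and 6 were lower and 3 higher at an unadjusted p under 0.05. Of 18 further target genes of other cells, 17 were tested, 1 was called lower (Cald1) and 0 higher, with a median of -0.14 and 12 below 0. Of these 17, 8 were lower and 1 higher at an unadjusted p under 0.05. Over all genes tested those shares were 6.94% and 9.14%, while 50.4% lay below 0, 0.604% were called lower and 0.13% higher.

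Cald1, which encodes the actin-binding protein caldesmon of smooth muscle and fibroblasts, fell from 80.3 to 84.4 FPKM in the wild-type libraries to 51.8 to 53.7 FPKM in the knockout libraries (log2 -0.63, SE 0.0482, limma adjusted p = 0.00219, at most 0.0407 over the alternatives). Thbs1, the matrix protein thrombospondin-1, lay at 20.1 to 24.6 against 15.4 to 16.7 FPKM (log2 change -0.48, adjusted p = 0.0540). It was called with a pseudocount of 0.1 (0.0472), a filter at 1 FPKM (0.0468) and without wild-type library 3 (0.0232). Cavin2, a caveola coat gene (-0.38, adjusted p = 0.0714), and Vcl, the adhesion protein vinculin (-0.27, adjusted p = 0.0786), lay below 0 without overlap. Lmcd1, a LIM domain protein, lay above 0 (0.49, adjusted p = 0.0975).

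Ccn1 and Ccn2, secreted matrix proteins named here after their values were seen because they are the most cited YAP/TAZ targets, did not pass the test. Ccn1 measured 10.6, 8.22 and 9.01 FPKM in wild-type and 7.59, 5.68 and 6.12 FPKM in knockout libraries (log2 change -0.46, 95% interval -0.75 to -0.17, limma adjusted p = 0.162). Ccn2 measured 6.50, 4.66 and 4.75 against 4.37, 2.71 and 3.50 FPKM (-0.48, 95% interval -0.87 to -0.10, adjusted p = 0.229). Neither gene overlapped between the groups, and knockout library 1 was the highest knockout library for both.

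**Figure D5:**
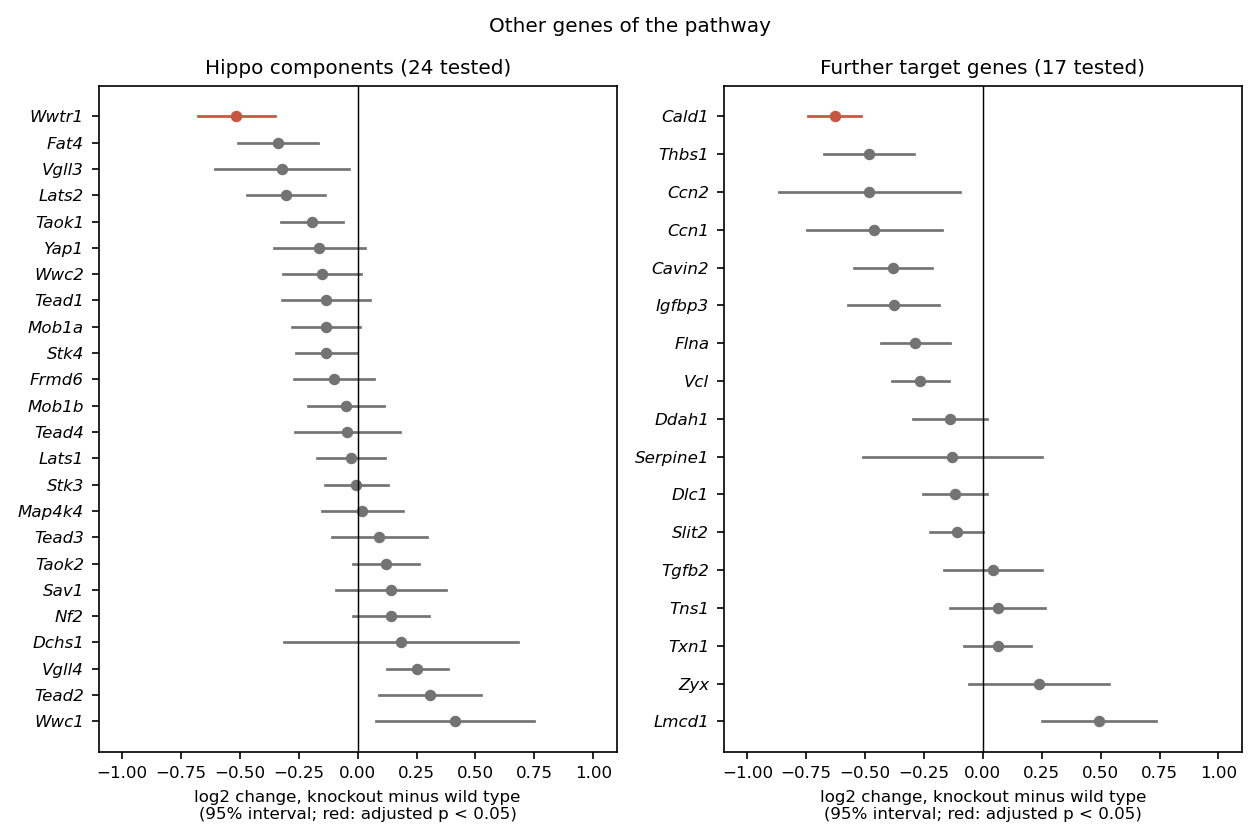
Log2 change (knockout minus wild type, log2(FPKM + 1) scale) with 95% confidence intervals from limma for 24 Hippo components and 17 further target genes (n = 3 libraries per genotype). Wwtr1 and Cald1 (red) have an adjusted p under 0.05, and the other genes (grey) do not.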

How the data were processed

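RNA-seq of whole E15.5 kidneys gave 3 knockout and 3 wild-type libraries, grouped by title. Per the submitters' processing notes, reads were handled with bcl2fastq 2.17.1.14 and Salmon on GRCm38 (mm10), and the authors deposited FPKM values per Ensembl gene. The Salmon version, annotation and summing to genes were not given in the sources used here. Because no counts accompany the deposited values, no count model applies. Genes averaging 0.5 FPKM or more were tested on log2(FPKM + 1) with limma 3.58.1 (R 4.3.3), genotype as the only term, trend and robust moderation, and Benjamini-Hochberg adjustment over 16899 genes. On this scale the change of low genes is understated. A call needs an adjusted p under 0.05. The procedure was tested on simulated data with log2 changes of at least 0.5 in size. The target genes changed by -0.32 to 0.37, so that test does not show whether changes of their size would be called.

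Members and lists were chosen with earlier results of these data known. All 32 members are named, and library values are given for the 10 with the smallest p. Of other pathway genes, those called and the 4 with the smallest p are named. Symbols and positions are from GENCODE M21, promoters from RefSeq (GRCm38.p6). Depth was approximated from single-transcript genes of at least 2 kb. Alternatives covered the pseudocount, filter, scaling, moderation, each library left out and a replicate block.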

Additional observations from a re-analysis of the deposited data

How the results depend on the processing

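None of the 29 target genes was called under any of the 16 alternatives fitted (smallest adjusted p 0.0812), and 24 of them kept their sign throughout. The 5 that changed sign did so when a library was left out, with log2 changes from -0.0704 to 0.0101 for Amotl1, -0.0394 to 0.123 for Ajuba, -0.0114 to 0.0440 for Myof, -0.0535 to 0.0162 for Dock5 and -0.0709 to 0.192 for Gadd45b. Their signs flipped without wild-type library 3 (Amotl1, Myof), wild-type library 2 (Dock5), wild-type library 1 (Ajuba, Gadd45b) or knockout library 1 (Gadd45b, -0.0247). The median change of the set ran from -0.09 to -0.06 and rho of level and change from -0.55 to -0.42 with a library left out.

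Over all genes, 45 to 96 were called lower and 7 to 51 higher with a library left out. The higher calls were 12 after rescaling to equal sums, 13 when globin and mitochondrial genes were left out of those sums, and 12 without trend. Deviations of same-numbered libraries from their group means correlated at 0.02, -0.04 and 0.05, and not every library correlated best with its own number. No pairing by number was seen. With 3 libraries per group this check cannot exclude a shared litter or batch. The replicate block left 30 genes lower and 2 higher, 0 Hippo components and a log2 change of -0.51 for Wwtr1 (adjusted p = 0.108), and 6 target genes lower and 2 higher at an unadjusted p under 0.05. For Wwtr1 the change was -0.53 with either rescaling (adjusted p = 0.0516 and 0.0532) and -0.55 to -0.46 with a library left out. Hippo components called lower were then 0 with either rescaling and 0 to 1 with a library left out. Further target genes called lower were 2 with a pseudocount of 0.1 or a filter at 1 FPKM and 1 to 2 with a library left out. TEAD letters were in 2 and AP-1 letters in 0 of the 25 genes in the last 100 bases. The number of libraries and, for Ankrd1, Areg and Foxf2, a depth of a few fragments limit the precision. The cause of these shifts was not tested.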
